A study of Mus musculus with 8 samples.

Results

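The peaks described here were the sites of YTHDF3 RNA immunoprecipitation (RIP-seq) that lay in internal exons of coding transcripts. YTHDF3 is a cytoplasmic YTH domain protein that reads N6-methyladenosine (m6A), and RIP-seq sequences the RNA that an antibody against it pulls down (IP) beside the RNA of the same cells before the pull-down (input). A peak was a member when HOMER had named it as exon N of M of a transcript with N above 1 and below M, and 35159 of the 87940 peaks in the 4 deposited lists were members (39.98%). The cells were mouse embryonic fibroblasts (MEFs) of wild-type C57BL/6 embryos of embryonic day 13.5 at passages 5 to 6. They were kept in their growth medium (normal) or in a medium deprived of nutrients for 2 h (starved), with 2 replicates of each, and each of the 4 lists compared 1 IP library with its input. The antibody targets the endogenous mouse protein, and no IgG or YTHDF3-deficient immunoprecipitation was analysed here. The labels do not say that replicates came from separate embryos or cultures, so that p-values measure the spread between these samples, which may be technical.

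In mRNA, m6A is placed by a methyltransferase complex mostly within a short consensus around GGAC, and exon junction complexes keep it away from the neighbourhood of splice junctions. Ordinary internal exons are therefore known to carry little m6A, while unusually long internal exons and the region around the stop codon carry much of it. An internal exon has a splice junction at each end, and a YTHDF3 peak there reports that fragments of that part of the mRNA were recovered more often in the IP than in the input. RIP can recover long stretches of a bound mRNA, so that a peak need not mark the binding site.

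The sequences of 4 exons come from the regions with the highest IP/input in all 4 lists. Only exons of at least 200 bp could give a full line. Shorter exons among these regions were left out, such as exons 13 and 4 of Soga1 (71 and 63 bp) and exon 2 of Tns1 (115 bp). The 4 exons are therefore examples of the longer exons among the strongest members and do not stand for all of them. Each line gives 200 bases of coding exon nearest the centre of the peak, on the transcribed strand of the mm10 genome, with every GGAC in capitals. The lines are exon 11 of Soga1 at chr2:157027420-157027619 and its exon 2 at chr2:157060200-157060399, both on the minus strand, exon 4 of Fam83g at chr11:61703115-61703314 on the plus strand, and exon 3 of Adcy9 at chr16:4418635-4418834 on the minus strand.
Soga1 exon 11: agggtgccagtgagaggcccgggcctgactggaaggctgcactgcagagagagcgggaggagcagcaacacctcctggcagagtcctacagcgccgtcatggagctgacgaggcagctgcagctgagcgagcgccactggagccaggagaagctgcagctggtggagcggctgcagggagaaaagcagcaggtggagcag
Soga1 exon 2: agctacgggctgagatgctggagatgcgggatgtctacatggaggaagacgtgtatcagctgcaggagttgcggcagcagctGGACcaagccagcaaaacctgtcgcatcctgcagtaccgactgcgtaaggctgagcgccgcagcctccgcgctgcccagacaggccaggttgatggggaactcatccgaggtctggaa
Fam83g exon 4: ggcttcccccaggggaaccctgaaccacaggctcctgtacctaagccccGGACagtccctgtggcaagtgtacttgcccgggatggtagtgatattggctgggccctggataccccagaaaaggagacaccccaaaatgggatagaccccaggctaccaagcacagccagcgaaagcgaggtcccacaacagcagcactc
Adcy9 exon 3: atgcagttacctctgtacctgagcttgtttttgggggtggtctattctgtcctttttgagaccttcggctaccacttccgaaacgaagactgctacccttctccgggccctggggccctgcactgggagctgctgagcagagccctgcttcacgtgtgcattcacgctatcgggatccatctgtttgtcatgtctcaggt

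Exon 2 of Soga1 and exon 4 of Fam83g held 1 GGAC each in these 200 bases, and the other two held 0. Another 3 exons are shown because their IP reads changed after starvation. They are exon 2 of Enc1 at chr13:97245780-97245979, exon 3 of Epha2 at chr4:141308630-141308829 and exon 6 of Amotl2 at chr9:102728375-102728574, all on the plus strand.
Enc1 exon 2: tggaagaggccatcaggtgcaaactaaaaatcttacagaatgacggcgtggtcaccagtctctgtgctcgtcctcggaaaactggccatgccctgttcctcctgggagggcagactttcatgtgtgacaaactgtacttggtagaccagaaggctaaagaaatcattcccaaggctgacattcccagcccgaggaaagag
Epha2 exon 3: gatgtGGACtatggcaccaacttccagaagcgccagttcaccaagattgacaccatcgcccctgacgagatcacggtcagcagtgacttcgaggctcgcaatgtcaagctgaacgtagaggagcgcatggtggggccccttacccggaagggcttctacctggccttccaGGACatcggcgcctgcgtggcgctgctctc
Amotl2 exon 6: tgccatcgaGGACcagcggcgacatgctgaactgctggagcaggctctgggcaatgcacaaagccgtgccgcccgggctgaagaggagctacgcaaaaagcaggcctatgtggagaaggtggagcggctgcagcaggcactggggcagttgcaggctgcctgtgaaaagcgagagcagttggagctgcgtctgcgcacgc

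Among these, Epha2 held 2 GGAC, Amotl2 held 1 and Enc1 held 0. Of the GGAC of Epha2, 1 was followed by T. High enrichment or a change after starvation was thus seen in exons with and without the motif in the window shown.

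Of the members, 34791 passed the target definition of the study, an IP/input of at least 2 with a p under 0.0001, and 368 did not. The kept members numbered 6207 and 9611 in normal replicates 1 and 2, and 8028 and 10945 in starved replicates 1 and 2. They were the largest class in each list, with 35.8% and 43.8% of the kept peaks in normal cells and 34.8% and 44.3% in starved MEFs (39.7% ± 5.1, SD, n = 4). The shares fell into a lower and a higher level by replicate number, not by condition. The means of both conditions were 39.8% for normal and 39.5% for starved cells, a difference of -0.23 percentage points (exact permutation test, two-sided, p = 1, where 2 against 2 cannot go below 0.333). Introns followed with 19.8% ± 1.63, 3' UTRs with 14.6% ± 2.75, last exons with 4.69% ± 0.590 and first exons with 3.15% ± 0.422 (SD, n = 4). Internal exon peaks held 3110917 and 5603648 IP reads in normal cells and 5377180 and 7699179 in starved cells, between 34.2% and 39.95% of the IP reads in kept peaks. These are reads inside called peaks, so that the depth of the libraries is unknown here.

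The share of internal exons fell as enrichment rose. They were 47.7% ± 6.03 of the peaks with an IP/input of 2 to 3, 38.5% ± 6.48 of those of 3 to 4, 28.9% ± 3.94 of those of 4 to 6 and 21.7% ± 3.30 of those of 6 or more (SD, n = 4). The order held in each of the 4 lists. It also held among peaks with at least 20 IP and over 3 input reads, where the share went from 48.9% ± 4.44 to 27.3% ± 3.97 (SD, n = 4). The plot of peaks by position and enrichment shows both patterns.

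**Figure D1:**
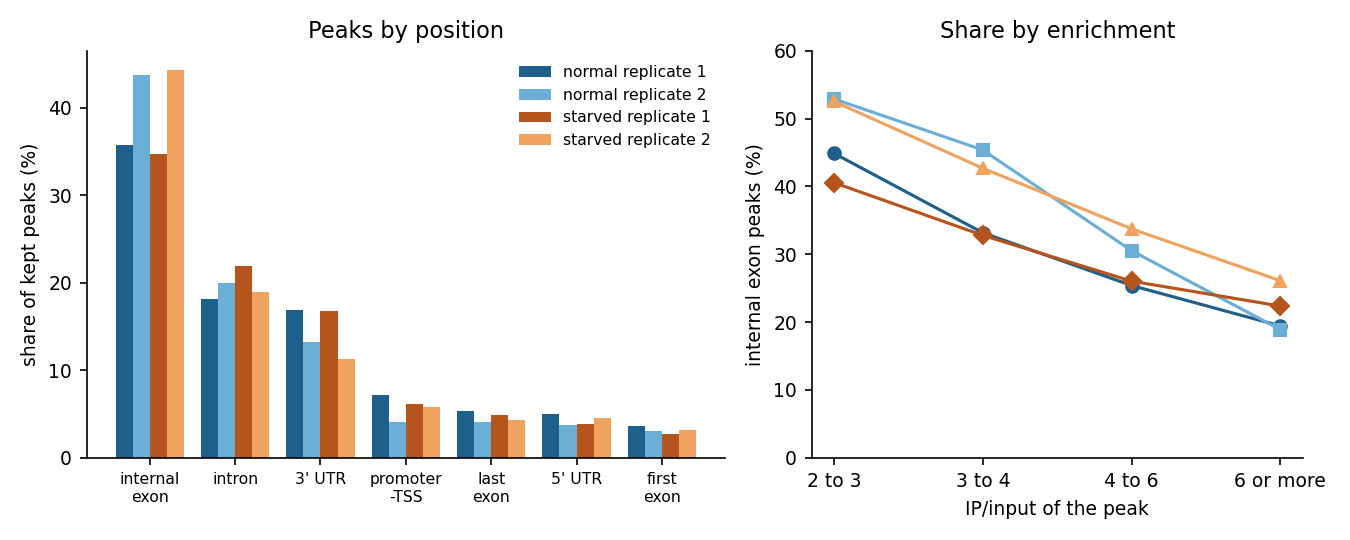
Left, share of the kept peaks of each list (%, bars from 0) in 7 kinds of position. Right, share of internal exon peaks (%) among peaks of rising IP/input, 1 line a list. Internal exons were the largest class in all 4 lists, and their share was highest among peaks with an IP/input of 2 to 3.

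The annotation matched the coordinates. The midpoint of 34128 of the 34791 kept members (98.1%) lay inside the named exon of the RefSeq transcript on GRCm38.p6, the patch release of mm10. Members covered 17284 different exons of 3442 genes, of which 2303 exons and 1339 genes had a peak in all 4 lists and 8333 exons in 1 list. The median length of a peak was 410 to 470 bp and that of its exon 161 to 170 bp. Consequently, 86.1% to 92.6% of the peaks that could be placed were longer than their exon and counted bases of the flanking introns.

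Exons with a peak were longer than those without one. In the transcripts with a member, internal coding exons that held a peak centre had a median length of 167 bp in replicate 1 and 159 bp in replicate 2 of both conditions. The other internal exons of these transcripts had medians of 126, 126, 125 and 124 bp. The length was thus 1.301-fold higher with a peak, in 4 of 4 lists (log2 ratio 0.38 ± 0.039, SD, n = 4, exact sign-flip permutation test over libraries, two-sided, p = 0.125, the smallest that 4 libraries allow). Exons of 400 bp or more made up 11.4% to 15.4% of those with a peak and 1.85% to 2.01% of those without. The share of exons with a peak centre rose through every length class, from 9.27%, 14.3%, 9.50% and 15.0% of the exons up to 100 bp in normal replicates 1 and 2 and starved replicates 1 and 2, to 84.0%, 81.6%, 86.0% and 85.2% of those over 2000 bp. A longer exon holds more reads and more possible centres, so that the share of exon bases inside peaks was compared as well. It rose from 29.0% ± 5.17 in exons up to 100 bp to 59.5% ± 5.39 in those of 601 to 1000 bp and was 54.1% ± 6.44 over 2000 bp (SD, n = 4). Input reads per kb of peak were higher at 401 to 600 bp than up to 100 bp in each list, for example 127 against 82.6 in normal replicate 1. The part of read number in the length pattern was not tested. The median IP/input hardly followed length up to 600 bp and was higher in exons over 1000 bp, at 1.58 to 1.74 on the log2 scale for 1001 to 2000 bp against 1.43 to 1.501 for 201 to 300 bp.

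**Figure D2:**
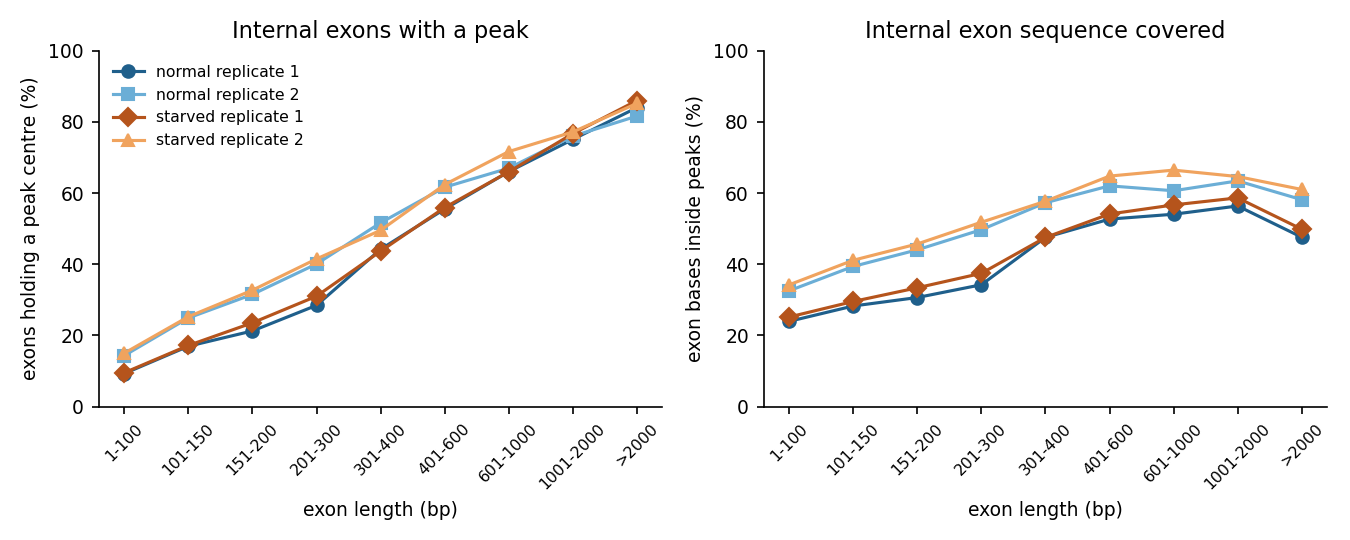
Left, internal coding exons (%) that held the centre of a kept peak, by exon length in bp, in transcripts with at least 1 member. Right, share of exon bases inside kept peaks. Each line is 1 list. The share with a centre rose in every class, from under 16% up to 100 bp to over 81% above 2000 bp, while the covered share levelled off above 400 bp.

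Along the transcript, members were spread over all internal exons with a slight lean to the 5' side. Each internal exon was placed by its rank from 5' to 3' among all exons of its transcript, and this range was cut into 5 equal parts. The first and last exons count in the rank, so that the outer parts hold fewer internal exons. The most 5' part held 18.6% ± 0.470 of the peaks and 16.7% ± 0.067 of the exons, and the most 3' part held 16.6% ± 0.490 of the peaks and 18.9% ± 0.065 of the exons (SD, n = 4). A peak centre was found in 26.8% ± 5.01 of the exons of the most 5' part and in 21.5% ± 3.63 of those of the most 3' part, higher on the 5' side in 4 of 4 lists. Median IP/input differed little, at 1.465 ± 0.035 in the most 5' and 1.497 ± 0.029 in the most 3' part on the log2 scale (SD, n = 4).

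Many transcripts carried peaks over several exons. Between 34.4% and 41.4% of the transcripts with a member had 1 member in a list, and 80 and 233 transcripts in normal cells and 128 and 271 in starved cells had at least 10. Of the transcripts with at least 10 internal exons, 11.9% and 21.5% in normal and 11.4% and 22.3% in starved cells had 80% or more of these exons touched by a peak. Enrichment was spread both among the peaks of 1 gene and between genes. Among genes with at least 5 members of at least 100 IP reads, the median SD of the log2 IP/input within a gene was 0.19 to 0.23. The SD of the gene means was 0.20 to 0.27. The first value is of single peaks and the second of means over peaks, so that they are not like measures. The part of counting noise in them was not tested. Peaks of 1 gene share their RNA and are not independent.

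Enrichment was lower in internal exon peaks than in first and last exon peaks. The median log2 IP/input of internal exon peaks was 1.48 and 1.49 in the normal lists and 1.47 and 1.53 in the starved lists. It was 0.16, 0.14, 0.15 and 0.16 below that of first and last exon peaks pooled (mean difference -0.15 ± 0.0068, SD, n = 4, exact sign-flip permutation test, two-sided, p = 0.125, the smallest possible). Against first exon peaks alone the difference was -0.17 ± 0.060 and against last exon peaks alone -0.13 ± 0.046, lower in 4 of 4 lists each (SD, n = 4). Input reads per kb of peak were 100, 125, 69.2 and 102 in internal exons and 78.3, 107, 48.0 and 82.5 in last exons. In first exons they were 104, 119, 68.2 and 93.2, closer to those of internal exons. With at least 20 IP and over 3 input reads a peak, the difference was -0.10.

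GGAC was more common in internal exon peaks than in internal exons of the same genes without a peak. The search used 200 bp windows at peak centres that lay wholly inside the exon, and the middle 200 bp of internal coding exons that overlapped no deposited peak, and counted GGAC on the transcribed strand. The motif was in 69.9% of 1470 and 65.6% of 1894 peak windows of normal MEFs, and in 66.2% of 1851 and 67.6% of 2111 windows of starved MEFs. It was in 63.0% of 946, 62.2% of 1188, 61.4% of 1524 and 62.0% of 1448 control windows. The difference was 5.18 ± 1.44 percentage points, higher in 4 of 4 lists (SD, n = 4, exact sign-flip permutation test, two-sided, p = 0.125, the smallest possible). In all 23452 internal coding exons of at least 200 bp in RefSeq, 63.5% of the middle windows held GGAC. Base composition moved with this result, with 55.4% to 56.9% G or C in peak windows and 51.9% to 53.7% in control windows. Among the 12 orders of the letters G, G, A and C, the difference of GGAC was in place 4, below CAGG at 5.95, AGGC at 5.81 and GCAG at 5.36 percentage points.

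The longer form GGACT stood out more among words of its own letters. It was in 25.3% and 23.5% of the peak windows of normal and 23.7% and 24.1% of those of starved MEFs, against 18.8%, 19.8%, 19.0% and 19.6% of control windows, a difference of 4.83 ± 1.18 percentage points (SD, n = 4). Of 60 orders of these letters, GGACT had the largest difference in both normal lists, the third largest in starved replicate 1 and the second largest in starved replicate 2, where the median order differed by 0.54 to 0.97 percentage points. In all RefSeq internal coding exons of at least 200 bp, 21.1% of the windows held GGACT. GGAC did not gather at the centre of the peaks. In members within exons of at least 1000 bp, its density in 50 bp bins from 500 bp upstream to 500 bp downstream of the centre varied between 4.29 and 6.38 per kb over the 4 lists, with no rise at the centre. A match of these letters is not a methylated site.

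**Figure D3:**
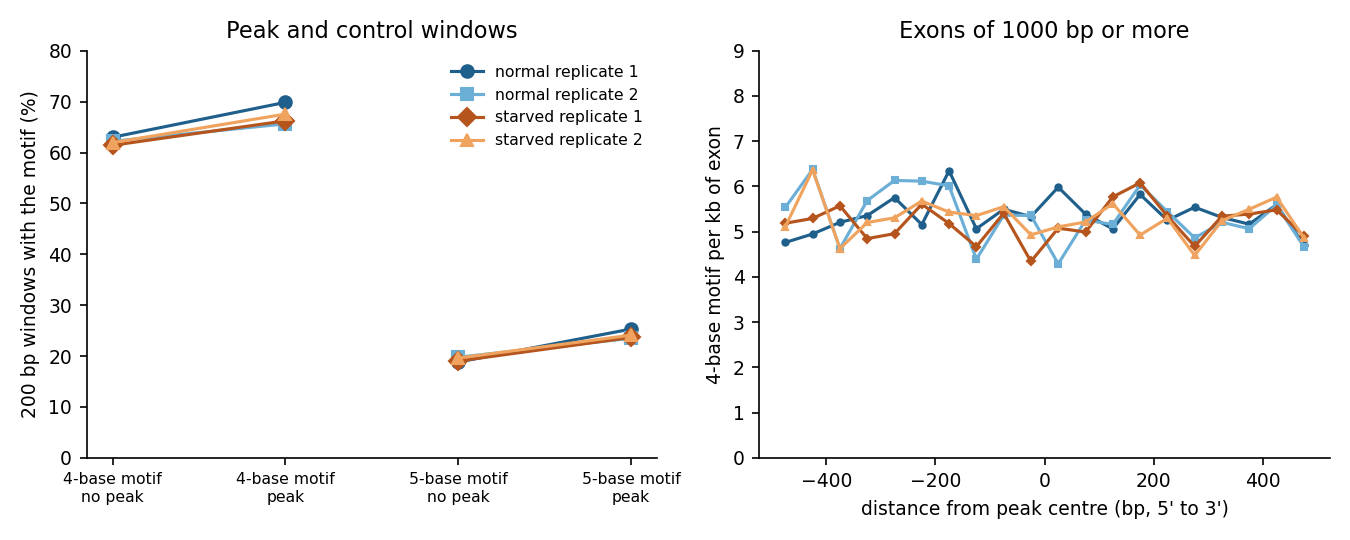
Left, 200 bp windows (%) that held GGAC (4-base motif) or GGACT (5-base motif) in internal exons without a peak and with one, 1 line a list. Right, density of GGAC per kb of exon against distance from the peak centre in bp, 5' to 3', in exons of at least 1000 bp. Both motifs were higher in peak windows in all 4 lists, and the density stayed between 4.29 and 6.38 per kb along the profile.

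Kept peaks of the 4 lists that shared 1 bp or more were joined into regions. This gave 12970 internal exon regions, those in which the peak with the most IP reads was a member in every list that had a peak there. Of these, 5715 were called in 1 list, 2920 in 2 lists, 2000 in 3 lists and 2335 in all 4 lists. The 2335 regions belonged to 857 genes, of which 396 had 1 region, and 129 genes with 5 or more held 1034 regions (44.3%). Their exons had a median length of 194 bp, and 563 of the 2306 that could be placed (24.4%) were 400 bp or longer. An exon 2 was the exon of 332 regions (14.2%). The mean IP/input of a region over the 4 lists ranged from 2.103 to 14.9 with a median of 3.001, against 3.07 over all 6531 regions called in all 4 lists. The highest values come from regions with few input reads, and in 35 regions a list had at most 3 input reads.

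With at least 20 IP and over 3 input reads in every list, the 10 regions with the highest smallest IP/input came from 7 genes. Soga1, which codes for a microtubule-binding protein first described in the control of autophagy and glucose output, gave 4 of them. Its exon 13, of 71 bp, had an IP/input of 4.95 and 4.97 in normal and 4.99 and 5.28 in starved MEFs, the narrowest spread of the 10. Exon 11 had 4.88, 5.58, 4.86 and 6.71, exon 4 had 5.82, 4.82, 5.12 and 8.87, and exon 2 had 5.81, 5.31, 4.46 and 8.17 in the same order. Starved replicate 2 was the highest list in each of these 4 exons, and in exon 13 alone both starved values lay above both normal ones, as in 14.9% of the 2335 regions and 15.2% of all 6531. In all, 11 internal exon regions of Soga1 from exon 2 to exon 14 of 15 were called in all 4 lists, with mean IP/input of 4.47 to 6.16. All 11 were thus above the median of 3.001.

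The other 6 genes gave 1 region each. Exon 2 of Tns1, coding for tensin 1, which links integrins to actin, had an IP/input of 6.32, 5.00, 5.52 and 4.84. Exon 4 of Fam83g, of 1261 bp, had 8.18, 6.10, 4.59 and 5.47, and exon 3 of Adcy9, an adenylyl cyclase, had 5.44, 5.55, 4.53 and 5.54. Exon 4 of Pogk, a KRAB domain gene derived from a pogo transposon, had 5.76, 5.90, 4.48 and 5.46. Exon 5 of Lyst, a regulator of lysosomal trafficking, had 9.68, 4.39, 5.14 and 4.49 on 6 to 33 input reads. The regions of Tns1, Fam83g and Pogk also had few input reads, at 6 to 15, 7 to 21 and 7 to 11. Exon 4 of Extl3, a glycosyltransferase of heparan sulfate synthesis, had 5.603, 4.37, 4.46 and 4.70. The differences between lists of 1 region were in several cases as large as those between regions, as the plot of the 10 regions shows.

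**Figure D4:**
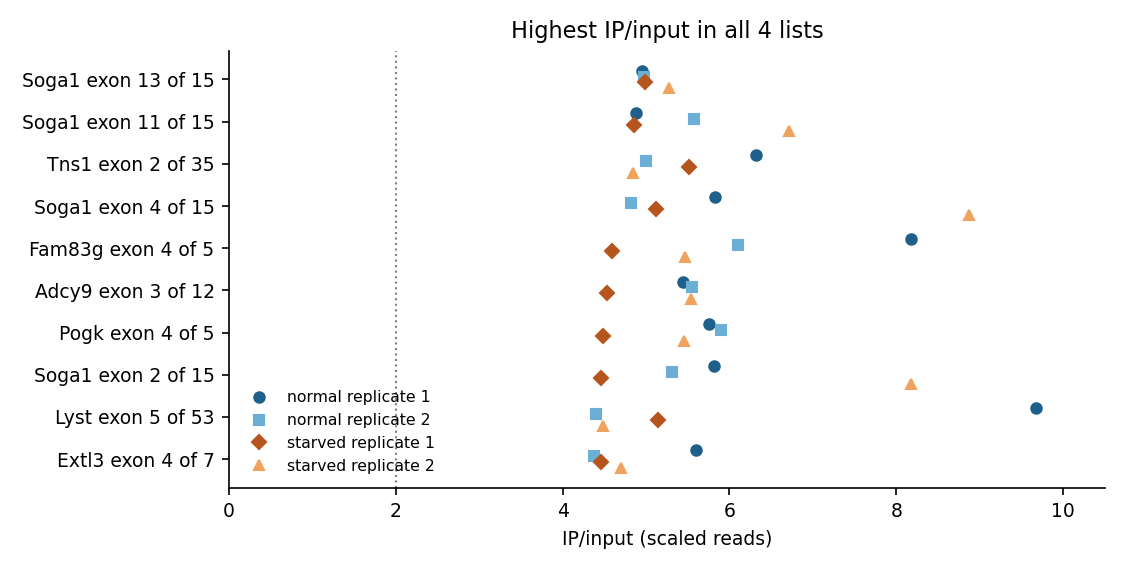
IP/input (scaled IP reads over scaled input reads) in the 4 lists for the 10 internal exon regions with the highest smallest value, the dotted line marking the threshold of 2. All values lay above 4.37, and the spread between lists was widest in Lyst exon 5 and Soga1 exon 4.

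Among the genes with many internal exon regions in all 4 lists were Notch2 with 20, Sipa1l3 and Wdfy3 with 18 each, and Tns1 and Ttc28 with 17 each. Notch2, a receptor of Notch signalling, had regions from exon 3 to exon 32 of 34 with 2.84 to 3.61. In Notch2 the median IP/input over its regions was 2.5 and 3.86 in normal and 2.40 and 3.54 in starved MEFs, so that the replicates were farther apart than the conditions. Sipa1l3, related to the Rap GTPase activator SIPA1, had mean values of 2.999 to 5.17, and Ttc28, a tetratricopeptide repeat protein, had 3.51 to 4.83. Wdfy3 codes for ALFY, an adaptor of selective autophagy of protein aggregates, and had 2.43 to 4.20 over exons 9 to 63 of 67. Tns1 had 2.70 to 5.42, where the highest value was that of exon 2, on 6 to 15 input reads, and the next was 3.35 in exon 17.

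At very long internal exons, the called length of the region ranged from a small part of the exon length to more than it. Called lengths count all peaks of a region, including bases outside the exon. The longest with a region in all 4 lists was exon 5 of Map1a, a microtubule-associated protein, with 8104 bp. The peaks of its region, which ran past the exon, covered 3310 and 5580 bp in normal and 9350 and 10730 bp in starved MEFs. Their IP/input was 2.32, 2.12, 2.48 and 2.46. Exon 12 of Spen, an RNA-binding transcriptional corepressor, had 8020 bp, and the peaks of its region took 3580, 7470, 5590 and 7440 bp. Exon 8 of Prune2 had 6550 bp but only 270 to 650 bp in peaks, with 33, 35, 66 and 112 IP reads on 3, 6, 1 and 20 input reads, too few to compare its IP/input between lists. The regions at exon 2 of Tcf20 (5772 bp), exon 3 of Rai1 (5527 bp) and exon 9 of Zfhx3 (5454 bp) had 4470 to 6640 bp in peaks in every list. These genes code for transcriptional regulators. Exon 4 of Hivep1 (5939 bp) and exon 3 of Zfp462 (5594 bp), of zinc finger genes, had 830 to 3550 and 490 to 1400 bp in peaks. None of the 8 passed the test of IP reads after starvation (edgeR adjusted p from 0.398 to 0.963).

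Starvation was compared in 3 ways over the 6531 regions called in all 4 lists, and the rows of the 2335 internal exon regions are given. In the IP/input ratio, which shows recovery relative to the RNA present, no internal exon region was called by edgeR with Benjamini-Hochberg adjustment, against 0.0153% of all regions. At an unadjusted p under 0.05 there were 54 of the 2335 (2.31%) and 183 of all 6531 regions (2.80%), and DESeq2 called 0 internal exon regions. The median log2 change of the ratio was 0.0041 over internal exon regions and -0.015 over all regions. The fit scales the libraries so that the typical region changes little. These medians therefore cannot show whether recovery changed in most regions at once. Within a replicate number, the conditions differed less than the replicates of 1 condition. The median absolute log2 difference of IP/input was 0.21 and 0.23 between starved and normal cells of replicates 1 and 2. It was 0.29 and 0.31 between the replicates of normal and of starved cells. Deviations of same-numbered samples correlated at 0.285 in IP/input, and conditions were not compared across numbers. These values therefore cannot show that starvation mattered less than the spread between samples.

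With the 1.8-fold cutoff of the study, applied here to each replicate and with both in 1 direction, 4 internal exon regions were higher and 1 was lower after starvation. Only regions with a kept peak in all 4 lists were compared, so that regions called in 1 condition alone could not be counted. The paper applied the cutoff to its own differential peaks, a different set, and its counts are not set beside these. Over all regions 0.230% were higher and 0.322% lower, and the total of 36 of 6531 (0.551%) stood beside 5 of 2335 (0.214%) in internal exons. The count depended on the cutoff. At 1.5-fold 17 were higher and 15 lower (1.37%, beside 2.20% of all regions), and at 2-fold 1 was higher and 0 were lower (0.0428%, beside 0.352%). Exon 2 of Wnt2b, a Wnt ligand, had an IP/input of 2.42 and 2.18 in normal and 5.40 and 4.69 in starved MEFs. Exon 4 of Itpkb, an inositol trisphosphate kinase, had 3.002 and 3.68 against 7.37 and 7.05. Exon 33 of Wdfy3 had 2.39 and 3.26 against 4.38 and 6.75, and exon 4 of Eef1aknmt, which methylates the elongation factor eEF1A, had 2.11 and 2.14 against 3.83 and 3.93. The called length also rose in these 4 regions, for Wnt2b from 240 and 350 bp to 600 and 610 bp. With that length as an offset, their fitted IP changes were -0.50, -0.093, -0.47 and -0.19 on the log2 scale, in the order named. Their input changes were -1.57, -1.22, -1.42 and -1.05, on 10 to 55 input reads a list. The higher ratio thus went with a lower input level and not with a higher IP level, and none of these changes passed edgeR. The region that was lower was an exon 2 of Akna, an AT-hook protein of the centrosome, with 6.15 and 5.27 against 2.65 and 2.83 on 8, 11, 81 and 92 input reads. Past the read minimum, the rule for named regions also gave Zc3h4 exon 5 as higher, at 3.73 and 2.89 against 6.69 and 6.67, and Nt5dc3, Rin2, Nlrx1 and Slc25a44 as lower, the last with 5.098 and 3.77 against 2.34 and 2.37. These missed the cutoff in 1 or both replicates. None of these 10 regions passed edgeR in the ratio (adjusted p = 0.999 at the lowest).

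IP reads per base, which follow both the RNA level and its recovery, did change in some exons. With the called length as an offset, edgeR called 2 internal exon regions higher and 13 lower after starvation, where 0.184% of all regions were higher and 0.934% lower. The 15 were 0.642% of the internal exon regions, beside 1.12% of all regions. DESeq2 called 23 higher and 24 lower (2.01%, beside 2.76% of all regions), so that the excess of falls depended on the method. The levels below are unscaled reads per kb. Over the 2335 regions their median was 429 and 512 in normal and 740 and 703 in starved MEFs, and the median region had 1.53-fold more after starvation, which is close to no change on the fitted scale. Both starved levels lay above both normal ones in 81.3% of the 2335 regions and in 74.9% of all 6531, and below them in 1.46% and 2.25%. Exon 2 of Mnt, which codes for a MAX partner that represses Myc targets, had 561 and 595 IP reads per kb in normal and 3725 and 3171 in starved MEFs. It rose by 1.98 on the log2 scale (SE 0.21, edgeR adjusted p = 0.00774). Exon 10 of Flcn had 315 and 349 reads per kb against 1426 and 1069 and rose by 1.32 (SE 0.23, edgeR adjusted p = 0.0446). Flcn codes for folliculin, which takes part in amino acid sensing by mTORC1. Its other 6 internal exon regions had changes of 0.97 to 1.36 on the log2 scale and did not pass (edgeR adjusted p from 0.0645 to 0.227). Both starved levels lay above both normal ones in each of its 7 regions, as they did in most regions.

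The regions that fell came from 9 genes. Exon 2 of Enc1, a kelch protein that binds actin, had 2921 and 4665 IP reads per kb in normal and 1391 and 1820 in starved MEFs, and fell by 1.804 on the log2 scale (SE 0.26, edgeR adjusted p = 0.0220). Exon 3 of Epha2, an ephrin receptor, had 1510 and 1351 against 686 and 589 and fell by 1.77 (SE 0.23, edgeR adjusted p = 0.0154). Exon 3 of Csrnp1, a nuclear protein induced by AXIN1, had 1011 and 1008 against 590 and 447.5 and fell by 1.56 (SE 0.23, edgeR adjusted p = 0.0256). Exon 2 of Klf2, a zinc finger transcription factor, had 1230 and 1218 against 644 and 656 and fell by 1.505 (SE 0.21, edgeR adjusted p = 0.0218). All 3 internal exon regions of Amotl2, an angiomotin that binds YAP, were called, with falls of 1.34 to 1.47, and 3 of the 4 of Csf1, the macrophage growth factor, with falls of 1.00 to 1.19. The remaining calls were 1 region each of Trib1, a pseudokinase, Ptger4, a prostaglandin E2 receptor, and Asb1, a ubiquitin ligase adaptor, at -1.46, -1.45 and -1.36. In the 4 regions given with their levels, which were chosen because they were called, both starved levels lay below both normal ones.

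Input reads per base of the same regions moved with the IP. edgeR called 3 internal exon regions higher and 7 lower in the input, where 0.276% of all regions were higher and 0.812% lower. The 7 that fell were those of Enc1, Epha2, Klf2, 1 of Csf1 and the 3 of Amotl2, and each was also called in the IP. Enc1 fell by 1.83 on the log2 scale (SE 0.23, edgeR adjusted p = 0.00728) and Epha2 fell by 1.69 (SE 0.28, edgeR adjusted p = 0.0231). Mnt rose by 1.68 in the input (SE 0.27, edgeR adjusted p = 0.0219). Exon 9 of Rin2, a Rab5 activator, and the exon 2 of Akna rose in the input by 1.93 and 2.37 (edgeR adjusted p = 0.0239 and 0.0451), where their IP changes of 1.09 and 1.33 did not pass (edgeR adjusted p = 0.0787 and 0.0786). The difference between IP and input is the change of the ratio, and for the 15 regions called in the IP it lay between -0.36 and 0.71 with none past the threshold. Fewer cells of a kind and less RNA in each cell cannot be told apart in these bulk samples.

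**Figure D5:**
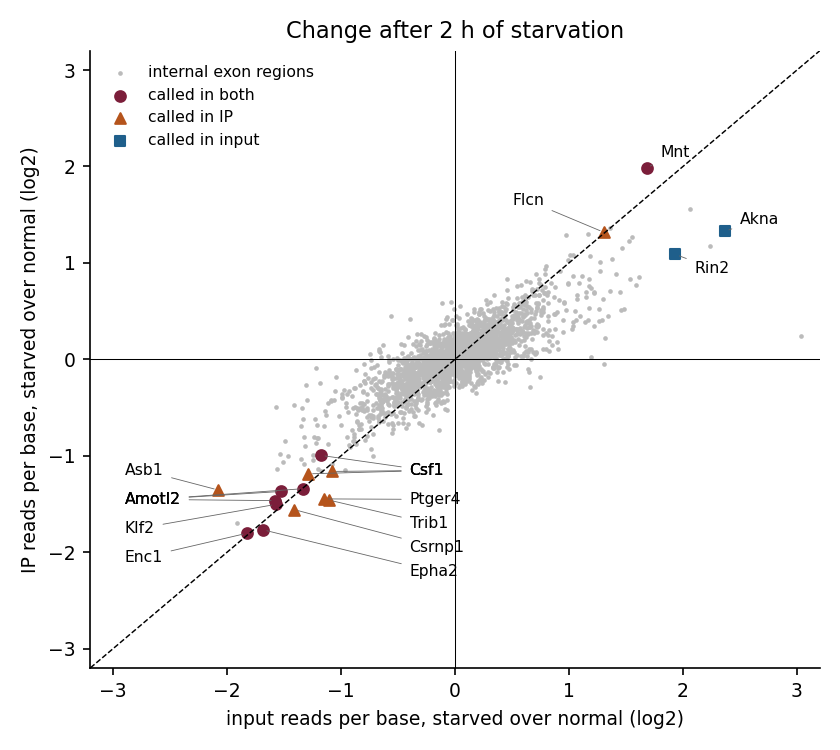
Change of IP reads per base against change of input reads per base, starved over normal, both on the log2 scale, for the internal exon regions called in all 4 lists (1 of 2335 lies outside the axes). The dashed line marks equal change, and named points were called by edgeR in the IP, the input or both. Mnt and Flcn lie at the upper end, and the regions of Enc1, Epha2, Csrnp1, Klf2 and Amotl2 at the lower end near the line.

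The number of calls in IP and input depended on the length offset and on which libraries were used. It also depended on a term for replicate number, whose counts are given at the end. Without the offset edgeR called 0 regions in IP and 0 in input. At an unadjusted p under 0.05 this left 137 internal exon regions in IP (5.87%, beside 8.42% of all regions) and 120 in input (5.14%, beside 7.78%). Without starved replicate 1 it called 4 regions in IP (0.171%, beside 0.597%), 3 of them among the 15. Without normal replicate 1, normal replicate 2 and starved replicate 2 it called 36, 39 and 30 in IP (1.54%, 1.67% and 1.28%, beside 2.85%, 3.08% and 2.30%), which held 15, 15 and 10 of the 15. In the input, 8, 10, 9 and 10 of the 10 calls remained without normal replicates 1 and 2 and starved replicates 1 and 2, among 10, 27, 10 and 29 calls (0.428%, 1.16%, 0.428% and 1.24%, beside 1.56%, 2.89%, 1.42% and 3.08%).

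The internal exon regions of 8 gene lists were set beside those of all 2335, of which 1260 had a higher IP level after starvation on the fitted scale, with a median change of 0.024. Of 30 genes of autophagy and nutrient sensing, 22 had an internal exon peak in a list and 11 had 41 regions in all 4 lists, with a median IP/input of 2.97. One region rose in IP, that of Flcn exon 10, and 26 of the 41 had a positive change, with a median of 0.18. Of the 41 regions, 18 were of Wdfy3 and 7 of Flcn, and all 7 of Flcn had a positive change. Regions of 1 gene are not independent, so that in this and the other lists such counts can rest on few genes. Exon 3 of Foxo3, a FOXO transcription factor of autophagy genes, had 1294 and 1854 IP reads per kb in normal and 4489 and 4186 in starved MEFs. Its change was 0.89 on the log2 scale and did not pass (SE 0.21, edgeR adjusted p = 0.130), and its input change was 0.79 (edgeR adjusted p = 0.352). Its IP/input was 3.003 and 5.29 in normal and 3.56 and 5.14 in starved cells, with the replicates again farther apart than the conditions. Exon 3 of Zfyve1, which codes for DFCP1, a marker of autophagosome formation sites, had 436 and 456 against 1586 and 1267 IP reads per kb and a change of 1.08 (edgeR adjusted p = 0.0765). In both exons the unscaled starved levels lay above the normal ones, as in 81.3% of the internal exon regions.

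Of 34 chromatin genes, 31 had an internal exon peak and 15 had 55 regions in all 4 lists, the highest number of the 8 lists, and none was called. The IP change was positive in 46 of the 55 with a median of 0.27. Exon 6 of Setd1b, an H3K4 methyltransferase, had 913 and 1253 IP reads per kb in normal and 2718 and 2562 in starved MEFs (change 0.71, edgeR adjusted p = 0.237). Of 23 cytoskeleton genes, 8 had 40 regions in all 4 lists and none was called. Exon 18 of Flna had 20432 and 25062 against 40844 and 38184 IP reads per kb (change 0.21, edgeR adjusted p = 0.768). Of 26 matrix genes, 4 had 31 regions, 16 of them in Col6a3, with a positive change in 5 of the 31 and a median of -0.097. Exon 3 of Thbs1, coding for thrombospondin 1, was the densest example with 179719 and 184801 against 166140 and 155238 IP reads per kb (change -0.77, edgeR adjusted p = 0.0569).

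The remaining lists had few regions. Of 20 genes of mRNA translation and decay, 3 had 11 regions, 8 of them in Tnrc6c, a partner of Argonaute, and none was called. Of 20 m6A genes, Ythdf2 had 2 regions and Alkbh5, an m6A demethylase, had 1. Exon 4 of Ythdf2, itself an m6A reader, had an IP/input of 2.26 and 2.13 in normal and 2.499 and 2.375 in starved MEFs. Of 26 growth factor response genes, 24 had a peak of any kind in a list and 8 had one in an internal exon. In single lists of normal replicates 1 and 2 and starved replicates 1 and 2, all kept peaks named 5484, 5654, 6561 and 6226 genes. Internal exon peaks named 2054, 2200, 2492 and 2492. A gene without an internal exon cannot hold a member, and the exon number of these genes was not compared. Of the 26, 2 had 4 regions, 1 of Dusp4 and 3 of Spred2. Exon 3 of Dusp4, a MAP kinase phosphatase, had 1680 and 1943 against 979 and 1659 IP reads per kb (change -1.03, edgeR adjusted p = 0.225). Of 22 genes of genome maintenance, 1 region of Slx4 was called in all 4 lists, at 4.29 on average. None of these regions was called in the IP or the input.

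Members also bore on the identity of the cells. Of 13 fibroblast markers 5 had an internal exon peak, namely Col1a2, Col3a1, Pdgfra, Pdgfrb and Prrx1, with 16 to 24 peaks a list, and 8 regions of Pdgfrb were in all 4 lists. Of 5 markers each, epithelial, immune, neural and muscle genes had 0 with an internal exon peak, while Csf1r of the immune, Nes of the neural and Myh3 of the muscle list had a peak of another kind. The endothelial list had 1, Kdr, with 1 peak of 14 IP reads in starved replicate 2. A list of enriched peaks does not give expression, and 6 fibroblast markers, Col1a1, Vim, Lum, Dcn, S100a4 and Twist1, had no peak of any kind.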

How the data were processed

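The YTHDF3 IP and input RNA of MEFs were sequenced in 4 IP and input pairs from directional polyA libraries. Per the methods of the study, the authors trimmed and aligned reads to mm10 (TopHat2 2.0.13 per the labels), called each IP against its input with diffReps and annotated peaks with HOMER. The authors deposited IP and input reads per peak, as a raw count in normal replicate 2 and elsewhere as a signal, that is reads multiplied by 1 factor a library. The authors also deposited the unadjusted diffReps p-value, used here only for the target threshold. The caller's own columns of averages, fold changes and adjusted p were not used. Whether counting used strand is not given in the sources used here.

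Whole reads were recovered by dividing by the factor (100% of values fell within 0.01 plus 2e-05 of the value from a whole multiple of it). IP/input was the ratio of the deposited scaled reads, with input set to 3 reads where it had fewer. Because lists hold reads in called peaks only, library depth is unknown. Peaks were placed on RefSeq exons of GRCm38.p6. Regions present in every list entered edgeR 4.0.16 (quasi-likelihood, TMM, called length as offset, adjusted p under 0.05) in R 4.3.3, with starved against normal for IP, for input and for their ratio. On simulated data with 200 of 6531 regions changed by 2 on the log2 scale, the fits of ratio, IP and input recovered 184, 200 and 196, with 13, 12 and 4 false calls. The simulation used 1 fixed dispersion and no effect of replicate number. It does not show how many smaller changes, such as 1.8-fold, the fits would find in these data. Measures with 1 value a list were tested by exact permutation.

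Named regions were the 10 with the highest smallest IP/input, the 5 with the largest change in each direction in each edgeR test, the 5 in each direction with the largest change of IP/input in both replicates, the 8 longest exons, the 6 genes with the most regions, and up to 4 of the densest examples of each gene list. All regions called by edgeR were named besides these. Members, lists and rules were chosen with earlier results of these data known. Alternatives were another peak threshold, overlap, normalization, read filter, DESeq2 1.42.0, no length offset, a block for replicate number and leaving out each replicate. Deviations of same-numbered samples correlated at 0.454 in IP, 0.292 in input and 0.285 in IP/input over 6531 regions, but with 2 pairs and no label that says what a number marks, samples were not treated as pairs. None of 43 named exons had another genomic match of 95% identity or more, and none of the 43 regions overlapped an exon of another RefSeq gene. Sequences were read from the RefSeq genome. The values of 1 gene that these rules name, and 1 sequence, are not reported here.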

Additional observations from a re-analysis of the deposited data

How the results depend on the processing

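With an IP/input of at least 4, internal exons made up 24.2% of the peaks, the starved minus normal difference in share turned from -0.23 to 1.315 percentage points (exact permutation p = 1), 55 regions were called in all 4 lists and 0 of them changed 1.8-fold. When any of its peaks had to be a member, 3574 regions were called in all 4 lists. The count of regions changed 1.8-fold became 32 at 1.5-fold, 1 at 2-fold and 8 with the peak of highest IP/input. DESeq2 called 47 regions in IP (2.01%, beside 2.76% of all regions) and 21 in input (0.989%, beside 2.28%), and no length offset left 0 in both. Leaving out 1 replicate gave 4 to 39 regions in IP and 10 to 29 in input. The cause of these differences was not tested. The other 43 alternative values kept their direction and their side of the threshold, or stayed within the limits set for counts and for replicate spread. Among them was a motif window at the most significant diffReps window, chosen after seeing the data, with a difference of 4.54 percentage points. For measures tested by permutation the side of the threshold could not change, because p cannot go below 0.125. Their size could change, and the GGAC difference fell from 5.18 to 2.83 percentage points with windows of 100 bp. In normal replicate 2 it was then 0.56.

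The replicate block, with replicate number as a term, gave 197 regions in IP (8.44%, beside 10.8% of all regions, with 112 higher and 85 lower and all 15 regions called without it among them), 76 in input (3.25%, beside 5.31%, with 42 higher and 34 lower) and 0 in the ratio. Since the lists hold reads in called peaks only, a region missing from a list cannot be told apart from one with too few reads to be called.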
